A study of Mus musculus with 4 samples.

Results

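The Hox genes are 39 mouse genes in 4 clusters, read here by 44 of the 39429 probes of a whole-genome array among 20886 named genes. Their members were taken by symbol, as every gene named Hoxa, Hoxb, Hoxc or Hoxd plus a number, and antisense transcripts were left out. Of each gene the brightest probe was used. Ileal total RNA, from the last part of the small intestine, was measured on 4 single-colour arrays: 2 samples came from mice given metformin by mouth at 1000 mg/kg and 2 from control mice. All were male C57BL/6J mice, 10 weeks old, and the labels give no vehicle and no length of treatment. Metformin is a glucose-lowering biguanide drug, and the series asks what it does to ileal gene expression. The labels do not state that replicates were separate animals, and p-values therefore reflect the spread among these samples alone, which may be technical.

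Hox genes encode homeodomain transcription factors that give cells of the embryo their position along the body axis. Within a cluster the genes lie in the order of their paralog numbers, and low-numbered genes are switched on earlier and further forward than high-numbered ones. In the gut they are active in the mesoderm that forms muscle and connective tissue and in the epithelium, and regional differences persist in the adult. Their proteins bind DNA together with the TALE homeodomain cofactors of the Pbx, Meis and Pknox families. Caudal genes (Cdx) and retinoic acid are known to switch on Hox genes in the embryo, and Polycomb proteins keep silent ones off.

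The arrays shared 1 slide and 1 scan, but each group had its own positions on that slide, so position and treatment cannot be told apart. On each array 65.1% to 69.1% of probes were well above background by the scanner software's flag, and no spot was saturated. Levels are given as log2 signal minus the array's 75th percentile, which makes samples comparable for 1 probe; levels of different genes cannot be ranked, since each probe has its own brightness. The 10544 probes that were never well above background had median levels of -9.11 in metformin 1, -9.39 in metformin 2, -8.47 in control 1 and -9.44 in control 2. A dim Hox gene therefore sits close to 1 log2 unit higher in control 1 than in control 2 with no signal of its own. The epithelial markers Vil1 and Cdh1 read 7.99 and 4.56 in metformin 1, 7.56 and 4.85 in metformin 2, 7.63 and 4.39 in control 1, and 7.26 and 4.62 in control 2, well above background in all 4 samples.

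Metformin 1 and control 1 stood apart from the other samples in their markers. The distal ileal bile acid genes were lowest in metformin 1 for 6 of 6 markers (28.5% of all tested genes). Slc10a2, the ileal bile acid transporter, read -0.89 in metformin 1 and 4.93 in metformin 2, against 4.46 in control 1 and 3.28 in control 2. Markers of the proximal small intestine were highest in metformin 1 for 6 of 8, as were 38.5% of all tested genes. Among the 6 was Apoa4, a lipoprotein gene, with 6.87 in metformin 1 and -0.41 in metformin 2, against 3.94 in control 1 and 0.99 in control 2. The other 2 of the 8 were lowest in metformin 1, so the list was not uniform. Smooth muscle markers were highest in control 1 for 13 of 13 (21.9% of all tested genes), for example Myh11, the smooth muscle myosin heavy chain, with -5.03 in metformin 1 and -3.80 in metformin 2, against 1.43 in control 1 and -3.93 in control 2.

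Of the 39 Hox genes, 17 were well above background on all 4 arrays, 8 on some and 14 on none. Detection differed by paralog group. All 4 genes of paralog group 4 (Hoxa4, Hoxb4, Hoxc4 and Hoxd4) were above background on every array, as were all 3 of group 6 and both of group 7. Of the 16 genes of groups 9 to 13, only Hoxa9 and Hoxb9 were, and 11 of the 16 were above background on no array. None of the 6 genes of groups 10 and 11 was detected on any array. In the other low and middle groups the genes above background on all arrays were 1 of 3 in group 1, 1 of 2 in group 2, 2 of 3 in group 3, 2 of 3 in group 5 and 0 of 3 in group 8. By cluster, 6 of 11 Hoxa genes, 7 of 10 Hoxb genes, 3 of 9 Hoxc genes and 1 of 9 Hoxd genes were above background on all 4 arrays. The count of detected Hox genes differed little between samples, with 19 in metformin 1 and 21 in metformin 2, against 20 in control 1 and 22 in control 2.

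**Figure D1:**
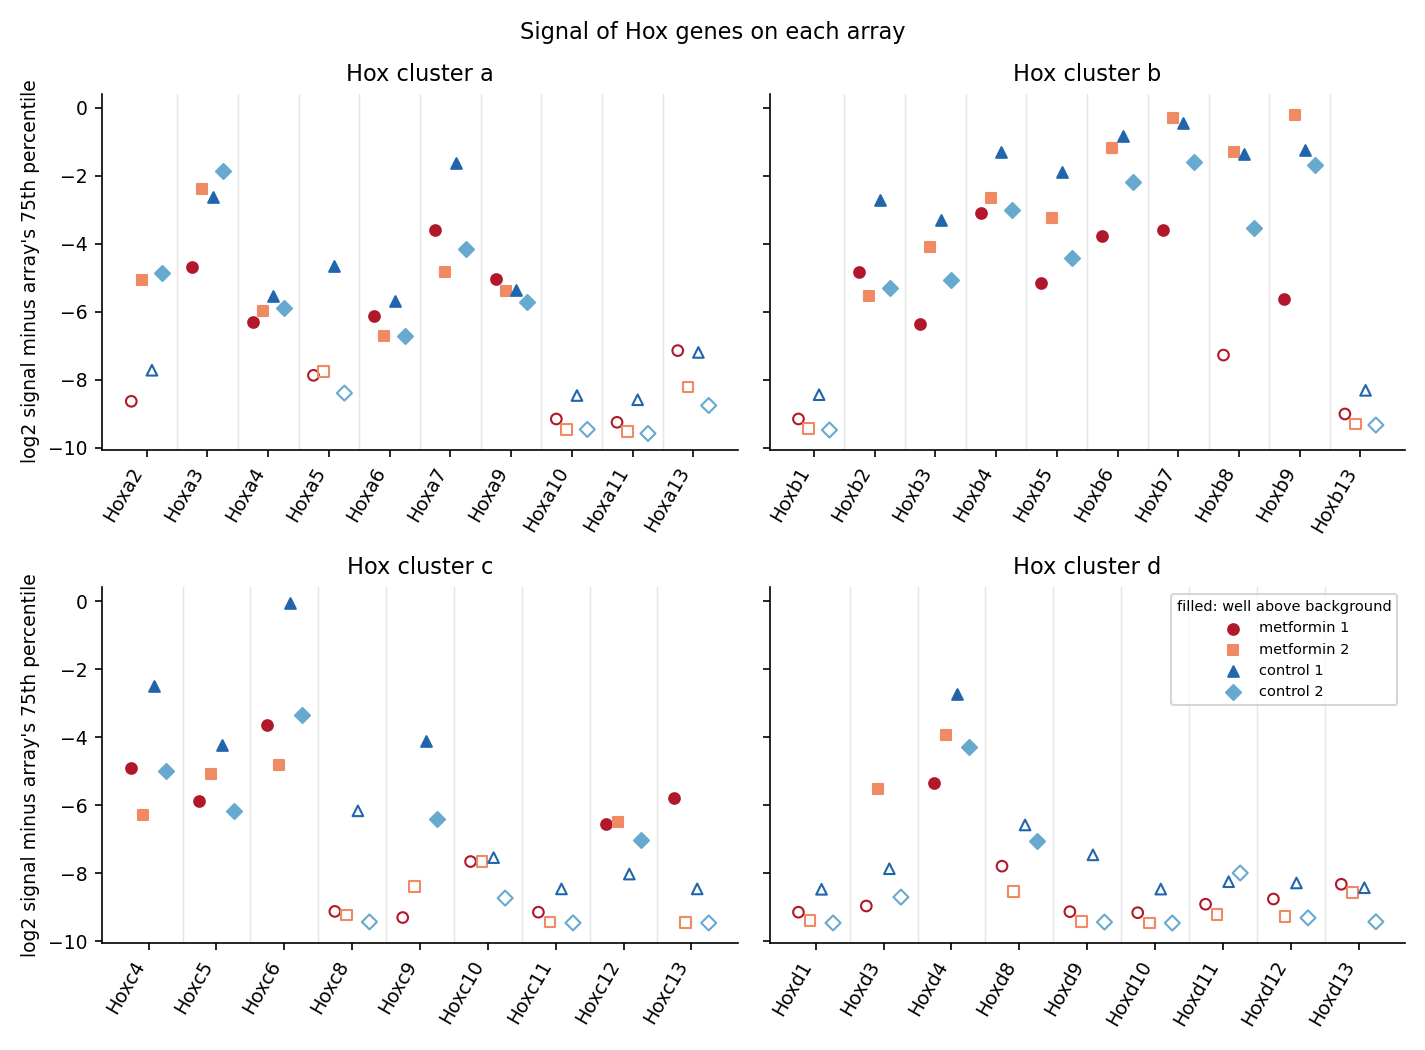
Log2 signal minus the array's 75th percentile (y axis) of the brightest probe of each of 38 Hox genes (x axis), by cluster, in 2 metformin and 2 control samples; filled points are well above background and open points are not. Levels may be compared between samples of 1 gene, not between genes. Hoxb2 to Hoxb9 are detected in all samples except Hoxb8 in metformin 1, while most genes of groups 10 to 13 lie at the floor of the arrays.

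The 14 Hox genes above background on no array were Hoxa10, Hoxa11, Hoxa13, Hoxb1, Hoxb13, Hoxc8, Hoxc10, Hoxc11, Hoxd1, Hoxd9, Hoxd10, Hoxd11, Hoxd12 and Hoxd13. For these the arrays set only an upper limit, and the groups are not compared. Hoxc8 read -9.12 in metformin 1 and -9.22 in metformin 2, against -6.16 in control 1 and -9.43 in control 2, with no sample well above background. Another 5 genes were above background on 1 or 2 arrays without covering a group. Hoxa2, known for patterning the hindbrain, was detected in metformin 2 at -5.07 and in control 2 at -4.86, but not in metformin 1 (-8.63) or control 1 (-7.72). It thus split by sample number and not by treatment. Hoxa5, a regulator of lung and gut mesenchyme, read -7.87 in metformin 1 and -7.76 in metformin 2, against -4.64 in control 1 and -8.39 in control 2, and was detected only in control 1. Hoxd3 was detected only in metformin 2 (-5.51), Hoxc13 only in metformin 1 (-5.79), and Hoxd8 only in control 2 (-7.04).

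The start regions of 4 detected genes are shown because they hold known kinds of regulatory motif and because these genes differ in how they spread between samples, as the values further on show. Each sequence runs from 250 bases before to 50 bases after the gene start in RefSeq on build GRCm38.p6, 5′ to 3′ on the plus strand. The windows lie at chr11:96318017-96318316 for Hoxb4, chr11:96281655-96281954 for Hoxb8, chr15:103034145-103034444 for Hoxc4 and chr2:74721728-74722027 for Hoxd4. Capitals mark matches on either strand to 4 motifs: TTTATNG, a short form of the caudal-type motif, TGATTNAT, a composite site of Pbx and Hox proteins, TATAAA, the TATA box, and AGGTCA, the core recognition element of nuclear receptors such as the retinoic acid receptors.
Hoxb4: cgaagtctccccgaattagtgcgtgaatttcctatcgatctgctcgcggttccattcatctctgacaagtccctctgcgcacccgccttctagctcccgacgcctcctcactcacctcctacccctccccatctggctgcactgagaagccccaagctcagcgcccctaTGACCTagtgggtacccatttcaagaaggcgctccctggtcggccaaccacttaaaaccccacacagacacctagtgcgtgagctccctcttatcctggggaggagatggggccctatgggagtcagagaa
Hoxb8: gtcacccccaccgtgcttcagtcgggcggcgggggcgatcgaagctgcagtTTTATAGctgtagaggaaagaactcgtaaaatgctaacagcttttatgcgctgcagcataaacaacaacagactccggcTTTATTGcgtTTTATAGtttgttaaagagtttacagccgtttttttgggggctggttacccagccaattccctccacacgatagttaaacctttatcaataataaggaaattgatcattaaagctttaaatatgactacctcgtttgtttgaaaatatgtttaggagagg
Hoxc4: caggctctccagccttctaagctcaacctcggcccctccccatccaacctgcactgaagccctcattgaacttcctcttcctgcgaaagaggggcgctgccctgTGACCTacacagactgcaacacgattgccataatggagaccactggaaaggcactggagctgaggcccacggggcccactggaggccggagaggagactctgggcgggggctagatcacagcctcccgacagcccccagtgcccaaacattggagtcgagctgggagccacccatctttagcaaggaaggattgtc
Hoxd4: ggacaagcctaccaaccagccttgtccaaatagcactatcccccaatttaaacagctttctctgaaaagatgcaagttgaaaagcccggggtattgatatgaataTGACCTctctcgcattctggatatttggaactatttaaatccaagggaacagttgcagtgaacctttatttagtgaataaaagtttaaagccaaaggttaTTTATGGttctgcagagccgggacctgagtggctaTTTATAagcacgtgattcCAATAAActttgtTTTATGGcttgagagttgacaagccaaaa
The Hoxb8 window held 3 matches to the caudal-type motif, 2 of which also hold the TATA box letters on the other strand. The Hoxd4 window held 3 caudal-type matches, 1 TATA box match and 1 receptor element. The Hoxb4 and Hoxc4 windows each held 1 receptor element, on the other strand, and no match to the other 3 motifs. Of 32851 promoter windows in the table, 10.9% held the caudal-type letters, 3.22% the composite site, 13.6% the TATA box letters and 16.3% the receptor element. Among 24 windows of 22 Hox genes in the table, the numbers with a match were 2, 2, 4 and 7 in the same order. These are descriptions of letters in a window, not evidence of binding.

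In the comparison of metformin with control, Hox genes had mostly lower levels in the metformin samples, but no Hox gene passed the test. Testing required a signal well above background in both samples of 1 group or the other, which 20 of the 39 Hox genes met. Genes that met it in 1 group alone, such as Hoxc9, had to differ, so counts over the 20 are descriptions. Of these 20, 18 had a lower mean in metformin samples and 2 a higher one, and the count of lower genes was 18 with quantile or median scaling, 14 with another background correction (normexp) and 17 in the deposited table after scaling. The median log2 difference, metformin minus control, was -1.06 over the 20 genes, against 0.06 over all 21649 genes tested. Without metformin 1 it was -0.21 with 12 of 20 lower, and without control 1 it was -0.28 with 13 of 20 lower. Over the 17 genes above background on all 4 arrays, whose choice does not depend on a group, it was -1.06 with 16 lower. In limma's fit with Benjamini-Hochberg adjustment, 0 Hox genes and 0 of all genes passed (0% in either direction, smallest adjusted p = 0.9996). Before adjustment, 346 of all genes had a p under 0.05 (0.351% of genes higher and 1.25% lower), among them 1 Hox gene, Hoxc9, which was lower.

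Hox genes that were at least 2-fold lower with no overlap between the groups numbered 2 of 20 (Hoxc6 and Hoxc9), where 2.3% of all tested genes met the same rule. Hoxc12 alone met the rule for higher values (0.628% of all genes), but it passed the filter through the metformin samples and was not well above background in control 1, where the lowest signal well above background was -6.43, above both metformin values. Its fold against that sample is therefore not defined. Lower values without overlap, whatever their size, were seen in 4 of 20 (Hoxa4, Hoxc6 and Hoxc9 among them; 8.47% of all genes), and higher ones in 1 of 20 (12.5% of all genes). Higher genes made up 21.4% of all 2-fold genes, 34.0% with scaling to the array median, 10.1% with normexp correction and 2.16% in the deposited table without scaling. The count of Hox genes at least 2-fold lower was 10 without metformin 2 and 12 without control 2 (8.20% and 5.88% of all genes). It was 5 without metformin 1 and 2 without control 1 (3.93% and 4.35% of all genes). Each value thus depends on which sample is left out, and the rule is easier to meet with 1 sample in a group. Of the 20 single-gene differences, 12 changed by over 1.5 times or turned in sign without metformin 1, 14 without metformin 2, 17 without control 1 and 15 without control 2. With normexp correction 17 of the 20 did so, 13 of them smaller and 4 turned, and 13 did so in the scaled deposited table. For 17 of the 20 genes the gap between the samples of at least 1 group was larger than the difference between the groups, as it was for 87.5% of all genes.

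**Figure D2:**
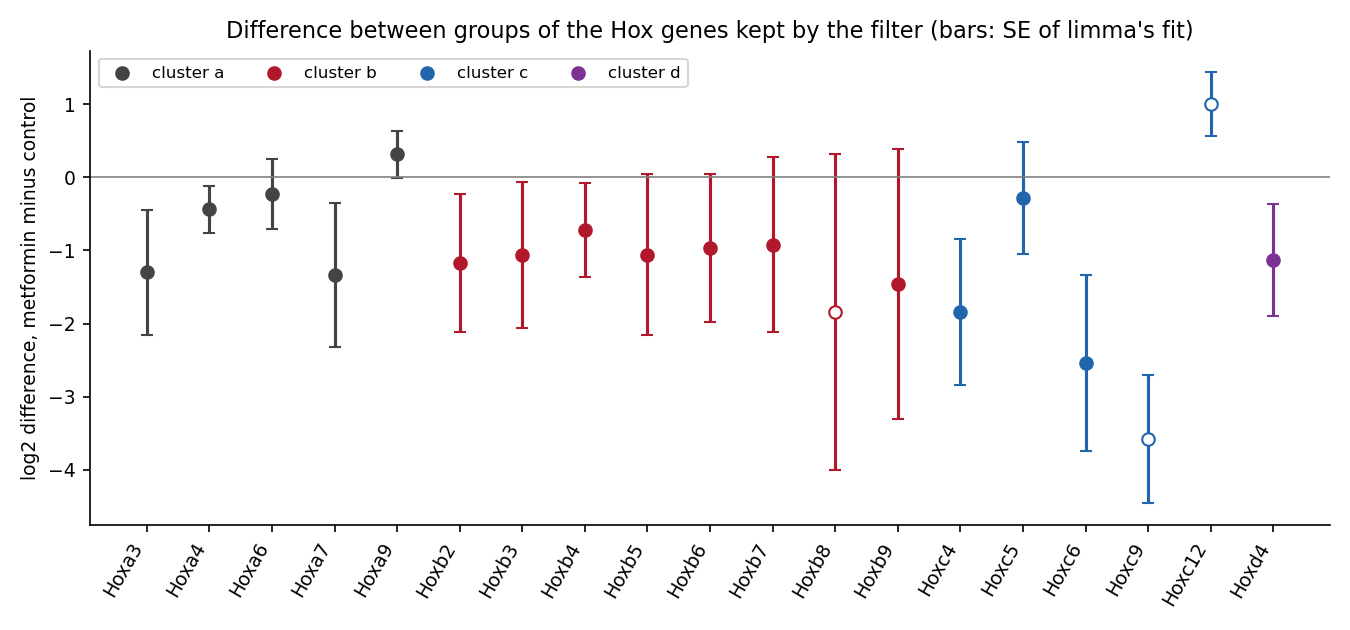
Log2 difference, metformin minus control (y axis), of 19 tested Hox genes (x axis), with the standard error of limma's fit as bars (2 samples per group) and colours for clusters. Open points mark genes not well above background on every array, for which the size is uncertain. Of the 19 points 17 lie below 0 (14 with normexp background correction), and 0 of them passed the adjusted test.

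Samples of 1 group differed more in the Hox genes than in most genes. The metformin samples differed by at least 2-fold in 11 of the 20 Hox genes and in 20.7% of all tested genes, and the control samples in 14 of the 20 and in 16.2% of all genes. Control 1 was the highest of the 4 samples for 14 of the 20 (21.9% of all genes), and metformin 1 the lowest for 11 (28.5% of all genes). The genes highest in metformin 2 and lowest in metformin 1 were Hoxb7, Hoxb8 and Hoxb9, while control 1 was highest for 4 of 6 tested Hoxa genes, for Hoxb2 to Hoxb6, for Hoxc4, Hoxc5, Hoxc6 and Hoxc9, and for Hoxd4.

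In cluster b the metformin samples lay far apart at Hoxb8 and Hoxb9. Hoxb9, a posterior gene of the trunk, read -5.64 in metformin 1 and -0.22 in metformin 2, against -1.25 in control 1 and -1.68 in control 2. Metformin 1 was thus far below the other 3 samples, metformin 2 was the highest, and the groups overlapped. The metformin samples differed 42.8-fold in Hoxb9 and the controls 1.35-fold. Hoxb8, its neighbour in the cluster, read -7.27 in metformin 1, where it was not well above background, and -1.30 in metformin 2, against -1.35 in control 1 and -3.54 in control 2. Metformin 2 was at least 54.5-fold above metformin 1 in Hoxb8, and the controls differed 4.56-fold. The differences between the groups were -1.46 (SE 1.85) for Hoxb9 and -1.84 (SE 2.15) for Hoxb8, and without metformin 1 they were 1.25 and 1.14, of the opposite sign. With normexp correction they were -0.62 and -0.29.

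Hoxb7 and Hoxb6, middle genes of the cluster, showed the same order of the metformin samples with smaller gaps. Hoxb7 read -3.58 in metformin 1 and -0.31 in metformin 2, against -0.45 in control 1 and -1.60 in control 2. Hoxb6 read -3.77 in metformin 1 and -1.18 in metformin 2, against -0.84 in control 1 and -2.18 in control 2. In both genes metformin 1 was the lowest sample, and metformin 2 lay above control 2. Hoxb5, which acts in enteric neuron progenitors as well as in mesenchyme, read -5.16 in metformin 1 and -3.24 in metformin 2, against -1.88 in control 1 and -4.42 in control 2. The group differences were -0.92 (SE 1.20) for Hoxb7, -0.97 (SE 1.02) for Hoxb6 and -1.06 (SE 1.10) for Hoxb5. Hoxb6 and Hoxb7 changed sign without metformin 1, at 0.33 and 0.72, and Hoxb5 without control 1, at 0.21. Hoxb5 was at -0.10 without metformin 1.

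Hoxb2 and Hoxb4 did not set metformin 1 apart from metformin 2 and control 2, while the brightest probe of Hoxb3 did. Hoxb4, which is also used by blood stem cells, read -3.08 in metformin 1 and -2.66 in metformin 2, against -1.31 in control 1 and -2.99 in control 2. Only control 1 stood out, and the difference of -0.72 (SE 0.64) was 0.12 without it. Hoxb2, a hindbrain patterning gene, read -4.82 in metformin 1 and -5.53 in metformin 2, against -2.71 in control 1 and -5.30 in control 2, again with control 1 alone above the rest. Its difference of -1.17 (SE 0.95) was 0.13 without control 1. Hoxb3 read -6.36 in metformin 1 and -4.10 in metformin 2, against -3.29 in control 1 and -5.05 in control 2. Its second probe gave the same order with smaller gaps below control 1, at -6.07 in metformin 1 and -5.14 in metformin 2, against -3.61 in control 1 and -5.65 in control 2. There control 1 stood out most. The difference of the brightest probe, -1.06 (SE 1.00), was 0.07 without metformin 1. From Hoxb2 to Hoxb7 metformin 2 minus metformin 1 was -0.71, 2.26, 0.42, 1.92, 2.58 and 3.28, and at Hoxb9 it was 5.42. At Hoxb8 there is only the bound given above. The controls ran differently, with control 2 minus control 1 between -2.60 (Hoxb2) and -0.43 (Hoxb9) and of 1 sign throughout.

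**Figure D3:**
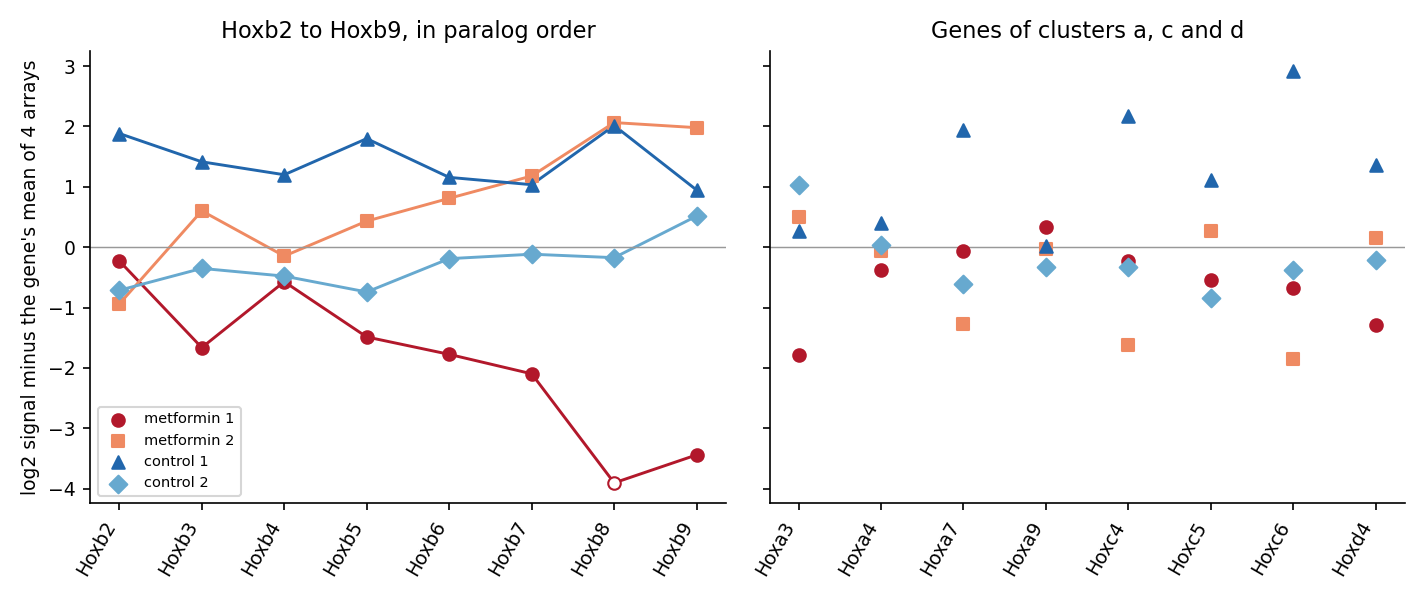
Log2 signal minus the gene's mean of the 4 arrays (y axis) for Hoxb2 to Hoxb9 in paralog order (left) and for genes of clusters a, c and d (right), in 2 metformin and 2 control samples; the open point (Hoxb8 in metformin 1) was not well above background. Metformin 2 minus metformin 1 is -0.71 at Hoxb2, 2.26 at Hoxb3, 0.42 at Hoxb4 and 5.42 at Hoxb9, while Hoxa7, Hoxc4, Hoxc5, Hoxc6 and Hoxd4 are highest in control 1.

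The levels of the 5 genes from Hoxb5 to Hoxb9 ran beside the markers of position along the small intestine. Relative to each gene's control mean, their median was -2.56 in metformin 1 and 0.72 in metformin 2, against 0.67 in control 1 and -0.67 in control 2. These 5 genes were chosen with the values of cluster b known, so their likeness to the markers partly follows from that choice. Over all 8 tested Hoxb genes the medians were -2.23 in metformin 1 and 0.20 in metformin 2, against 0.86 in control 1 and -0.86 in control 2, with control 1 highest. The 6 distal ileal markers had medians of -2.31 in metformin 1 and 0.62 in metformin 2, against 0.18 in control 1 and -0.18 in control 2. The 8 proximal markers had medians of 2.47 in metformin 1 and -0.55 in metformin 2, against 0.30 in control 1 and -0.30 in control 2. The summed level of the distal list, on the log2 scale, was 6.19 and 9.26 in the metformin samples and 9.31 and 8.75 in the controls, and that of the proximal list was 9.32 and 6.16 in the metformin samples and 7.31 and 6.40 in the controls. No marker of the distal list was at background on any array. The part of these markers in the Hoxb values was not tested. The 8 epithelial markers had medians between -0.03 and 0.25 in the 4 samples, so the amount of epithelial signal differed little. The 7 tested colonic epithelial markers had medians of 0.20 in metformin 1 and 0.50 in metformin 2, against -0.43 in control 1 and 0.43 in control 2. Their median difference between the groups was 0.22, and whether a sample held tissue from beyond the ileum was not tested. In bulk tissue, fewer cells of a type and less RNA per cell cannot be told apart.

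In cluster c, 4 of the 5 tested genes had lower means in metformin samples, and all 4 were highest in control 1 (3 of 5 were lower with normexp correction). Hoxc6, a trunk gene, read -3.65 in metformin 1 and -4.82 in metformin 2, against -0.06 in control 1 and -3.34 in control 2. The groups did not overlap, but control 2 lay just above metformin 1, and control 1 far above the rest. The difference was -2.54 (SE 1.20), and -0.90 without control 1. Hoxc9, a posterior trunk gene, was not well above background in metformin 1 (-9.30) or metformin 2 (-8.38), and was in control 1 at -4.11 and control 2 at -6.40. Its signal was at least 3.89-fold lower in metformin samples, set by the background limit of the arrays (adjusted p = 0.9996 in limma's fit). That bound uses the mean of the controls, of which control 1 was much the higher. With normexp correction, which shrinks dim signals, the log2 difference of Hoxc9 was -0.35 in place of -3.58. It was -0.87 in the deposited table after scaling, and -2.44 without control 1.

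Hoxc4 read -4.90 in metformin 1 and -6.29 in metformin 2, against -2.50 in control 1 and -5.01 in control 2. Control 2 lay just below metformin 1, so the groups overlapped, and the difference was -1.84 (SE 1.00), or -0.59 without control 1. Hoxc5 read -5.88 in metformin 1 and -5.07 in metformin 2, against -4.22 in control 1 and -6.18 in control 2. Here control 1 was the highest and control 2 the lowest sample, and the difference of -0.28 (SE 0.76) was 0.70 without control 1. Hoxc12, a gene known from hair follicles and the posterior body, read -6.56 in metformin 1 and -6.48 in metformin 2, against -8.02 in control 1 and -7.02 in control 2. It was not well above background in control 1, all 4 values were dim, and the difference of 1.00 (SE 0.43) was 0.27 with normexp correction. Hoxc12 was the only tested gene of groups 10 to 13, and its neighbours Hoxc11 and Hoxc10 were not detected.

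In cluster a, Hoxa3 departed from its neighbours. Hoxa3, which patterns the pharyngeal region, read -4.68 in metformin 1 and -2.40 in metformin 2, against -2.63 in control 1 and -1.86 in control 2. It was the only tested gene with its highest value in control 2, and metformin 1 lay below the other 3 samples. The difference was -1.30 (SE 0.86), and -0.15 without metformin 1. Hoxa7, a trunk gene, read -3.61 in metformin 1 and -4.82 in metformin 2, against -1.61 in control 1 and -4.15 in control 2, with control 1 alone above the rest. Its difference was -1.33 (SE 0.99), and -0.06 without control 1.

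Hoxa4, Hoxa6 and Hoxa9 differed less between the groups. Hoxa4 read -6.30 and -5.98 in the metformin samples, against -5.52 and -5.88 in the controls. The groups did not overlap, and the difference was -0.44 (SE 0.32), but with normexp correction it was 0.14, of the opposite sign. Hoxa6 read -6.13 and -6.70 in the metformin samples, against -5.67 and -6.70 in the controls, a difference of -0.23 (SE 0.48) that was 0.29 without control 1. Hoxa9, a gene of the posterior trunk and of blood progenitors, read -5.04 and -5.40 in the metformin samples, against -5.36 and -5.71 in the controls. Its difference of 0.32 (SE 0.32) was positive without each sample in turn. The second, dimmer probe of Hoxa9 read -6.43 and -6.55 in the metformin samples, against -7.16 and -7.11 in the controls. That probe was not well above background in control 1, where the lowest signal well above background was -6.43. Its difference of 0.65 is therefore uncertain. Hoxa9 thus lacked both the high value of Hoxa7 in control 1 and the low value of its paralog Hoxb9 in metformin 1.

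In cluster d, Hoxd4 was the only gene detected on all 4 arrays. It read -5.35 in metformin 1 and -3.93 in metformin 2, against -2.72 in control 1 and -4.29 in control 2. Metformin 1 was the lowest and control 1 the highest sample, and the difference was -1.13 (SE 0.77), or -0.35 without control 1 and -0.42 without metformin 1. Hoxa3, Hoxb3 and Hoxd3 have RefSeq transcripts that span neighbours of higher paralog number (Hoxa4 to Hoxa6, Hoxb4 and Hoxd4). Exons were not compared with the probes, so a probe of these genes could read a shared transcript, and their separate values are uncertain.

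Control 1, where 14 of the 20 Hox genes were highest, also held the highest values of 13 of 13 smooth muscle, 8 of 10 nerve and 11 of 12 fibroblast markers (21.9% of all tested genes). Relative to the control means, the 13 tested smooth muscle markers had medians of -3.43 in metformin 1 and -2.52 in metformin 2, against 2.34 in control 1 and -2.34 in control 2. Of the 13, 9 were at least 2-fold lower without overlap (2.3% of all tested genes). Their median difference between the groups was -3.11, but -0.63 without control 1. Their summed level on the log2 scale was 3.78 and 4.67 in the metformin samples, against 8.05 and 4.84 in the controls. The 10 enteric neuron and glia markers had medians of -1.02 and -1.13 in the metformin samples, against 0.89 and -0.89 in the controls. Their summed level was 5.26 and 4.77 in the metformin samples, against 5.04 and 4.25 in the controls. That sum is almost wholly the bright probe of Snap25, at 5.24 and 4.73 in the metformin samples, against 4.96 and 4.21 in the controls. It does not stand for the other markers of the list. The neuronal gene Stmn2 read -7.58 and -6.06 in the metformin samples, against -1.29 and -6.33 in the controls. Stmn2 was not well above background in metformin 1 and passed the filter through the controls. Of the 10 nerve markers, 2 had higher means in metformin samples. The 12 fibroblast and matrix markers had medians of -1.38 and -2.54 in the metformin samples, against 0.59 and -0.59 in the controls. Of the 12, 10 were at least 2-fold lower without overlap (2.3% of all tested genes). Among them was Dpt, which passed the filter through the controls alone. The median difference of the list was -2.06, and -1.34 without control 1. Its summed level was 4.29 and 2.95 in the metformin samples, against 5.50 and 4.41 in the controls. In metformin 1 the brightest part of the fibroblast sum was Fbln1 (3.35), a marker with a higher mean in metformin samples. Cluster c genes had medians of -1.15 and -2.54 in the metformin samples, against 1.14 and -1.14 in the controls. Of these 3 lists and the Hox genes, 0 genes passed limma's adjusted test, and the part of muscle, nerve or matrix tissue in the Hox values was not tested. Lists of fat and vessel markers, also lower in metformin samples, did not share this order: adipocyte markers were highest in control 2 for 5 of 7 and endothelial markers for 4 of 7 (19.4% of all tested genes).

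**Figure D4:**
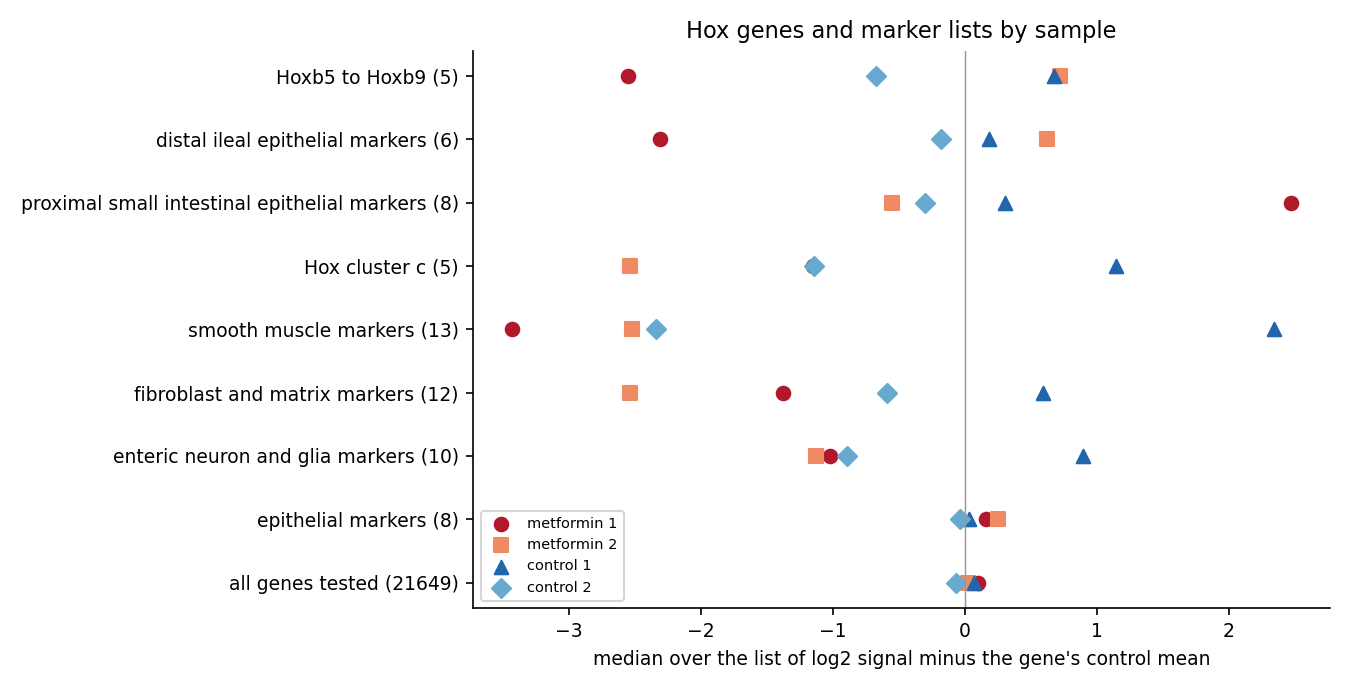
Log2 signal relative to the control mean of each gene, as the median over a list (x axis), for Hoxb5 to Hoxb9, Hox cluster c and 6 marker lists beside all genes tested (y axis, number of tested genes in brackets), in 2 metformin and 2 control samples. Hoxb5 to Hoxb9 are low in metformin 1 (-2.56), as the distal ileal markers are (-2.31), and cluster c is highest in control 1 (1.14), as the smooth muscle markers are (2.34). Hoxb5 to Hoxb9 were chosen from the 8 tested Hoxb genes with their values known.

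The genes that work with or upstream of the Hox genes had median differences close to 0, and 0 of them passed the adjusted test. Of 8 tested TALE cofactors, 4 had higher and 4 lower means in metformin samples, with a median difference of -0.02. Meis1 and Meis2, cofactors of mesenchyme and neurons as well as of other tissues, were highest in control 1. Meis1 read -4.30 and -5.45 in the metformin samples, against -0.66 and -4.43 in the controls (difference -2.33, SE 1.35, or -0.45 without control 1), and Meis2 read -4.17 and -5.11 in the metformin samples, against -1.48 and -5.16 in the controls (difference -1.32, SE 1.30, or 0.52 without control 1). The caudal genes of the intestinal epithelium differed little: Cdx1 read 4.94 and 5.59 in the metformin samples, against 5.34 and 5.48 in the controls, and Cdx2 read 4.72 and 4.55 in the metformin samples, against 4.56 and 4.03 in the controls. Cdx1 was lowest in metformin 1 and Cdx2 in control 2, and the part of the caudal genes in the Hox values was not tested. Cdx4 did not reach the filter.

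Of 18 tested Polycomb and trithorax genes, 7 had higher and 11 lower means, with a median difference of -0.03. Ezh2, the methyltransferase of Polycomb complex 2, differed by -0.01 (SE 0.28), and Cbx6 by -0.76 (SE 0.42). Of 13 tested retinoic acid genes, 7 had higher and 6 lower means (median 0.07). The receptor Rarb differed by -1.05 (SE 0.59) and the retinoic acid producing enzyme Aldh1a2 by -0.92 (SE 0.45), both without overlap (8.47% of all genes were lower without overlap). Both were highest in control 1, with control 2 just above metformin 1. Rarb read -5.73 and -6.34 in the metformin samples, against -4.27 and -5.70 in the controls. Aldh1a2 read -3.01 and -3.52 in the metformin samples, against -1.89 and -2.80 in the controls. The degrading enzyme Cyp26b1 differed by -0.86 (SE 0.50). Of 10 genes that flank the clusters, 8 were tested, 4 in each direction, with a median of 0.02 and differences between -0.14 and 0.36. Skap1, which flanks the Hoxb cluster, read -1.35 and -1.05 in the metformin samples, against -1.19 and -1.60 in the controls. Evx1 and Evx2, homeobox genes at the posterior ends of clusters a and d, did not reach the filter. Of 14 noncoding transcripts of the clusters, Hoxa11os was the only one tested, with -4.89 and -5.28 in the metformin samples, against -5.34 and -5.60 in the controls (difference 0.38, SE 0.32), while Hoxa11 itself was not detected.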

How the data were processed

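RNA was hybridised as Cy3-labelled cRNA, per the labels' protocols. The deposited scanner output gives linear spot intensity from Agilent Feature Extraction 10.7.3.1, background-subtracted and detrended within each array and not scaled between arrays, per the file headers. A deposited series table was equal, for all 39030 probes with 1 spot, to the raw median spot signal, so it was treated as unscaled intensity and used only as an alternative. The log2 processed signal minus each array's 75th percentile was used. Flagged spots were left out, repeated spots averaged, and 47 of 39429 probes were dropped because some array had no usable spot. Accessions named 27508 probes through RefSeq (GRCm38.p6), leaving 11921 unnamed. The files' build field is mm9, so only the promoter table's own coordinates are given.

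The comparison used limma 3.58.1 in R 4.3.3 (lmFit, then eBayes), two-sided, over 21649 genes and transcripts, with Benjamini-Hochberg adjustment at 0.05. The fit was run on simulated data, but recovery of known changes was required only at a spread between samples far below the real one. That check therefore does not show what the fit can detect in these samples. The samples' number limits the precision. Hox genes were named, those passing the filter with values, and of each other list up to 4 members. A few members are counted but not reported here by name. The members and lists were chosen with earlier results of these data known. The files hold no mean spot signal, so normexp (offset 50) was run on the median signal and the local background. Where all arrays of a group were not well above background, a bound replaced the fold: the bright group's mean against, per array, the higher of the probe's own signal and the lowest signal well above background. Pancreatic acinar markers were measured as well (5 of 8 tested, all 5 with higher means, median difference 0.38). Some of these 5 passed the filter through the metformin samples alone, so the count is a description. Of all 21649 genes tested, 12532 had higher means in metformin samples.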

Additional observations from a re-analysis of the deposited data

How the results depend on the processing

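No gene passed the adjusted test in limma under any of the 14 alternatives, with smallest adjusted p between 0.0774 (without metformin 2) and 1, against 346 genes at an unadjusted p under 0.05 in the reported fit. The median log2 difference of the tested Hox genes was negative under all 14 and lay between -1.06 and -0.40 in those that kept all 4 samples, the weakest being normexp background correction; leaving out 1 sample at a time gave -1.66 to -0.21. Hox genes at least 2-fold lower without overlap were 0 with normexp, 1 with only probes above background on all 4 arrays, 1 in the deposited table after scaling and 4 in it without scaling, and 2 to 12 when 1 sample was left out. Those at least 2-fold higher were 0 with normexp, with only probes above background on all arrays, with flagged spots kept and in the deposited table in either form, and 0 to 3 when 1 sample was left out. The cause was not tested, except that the stricter filter tested 17 Hox genes. Over all genes the counts higher and lower, 136 and 499, were 13 and 116 with normexp, 22 and 198 in the scaled and 10 and 452 in the unscaled deposited table, 42 and 384 with the stricter filter, 317 and 812 with no filter and 212 and 412 with median scaling, and 354 to 1540 and 850 to 1776 when 1 sample was left out. Median scaling put the median of all genes at 0.19 and the unscaled deposited table at -0.17, against 0.06; relative to it the Hox median was -1.12, -0.74 and -1.12. With the stricter filter 9.86% of 2-fold genes were higher, 10% were in the scaled deposited table, without metformin 2 46.4% and without control 1 42.1%. Single Hox genes changed sign 6 times without metformin 1, 1 time without metformin 2, 5 times without control 1 and 0 times without control 2. The values of marker lists and Meis genes without 1 sample were computed after seeing the data.

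Samples share replicate numbers across groups, but the labels do not pair them. Deviations of metformin 1 and control 1 from their group means correlated at 0.56 across all tested genes and at 0.18 over the 20 Hox genes. With the replicate number as a block, 0 genes passed, the Hox median stayed at -1.06, 1537 genes in place of 346 had an unadjusted p under 0.05, and 5 Hox genes in place of 1. Hoxb8, Hoxc9 and Hoxc12 were not well above background on all arrays, which limits their values.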
